A study of Mus musculus with 20 samples.

Results

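Polycomb repressive complex 1 (PRC1) was followed through 10 of its subunit genes in sorted mouse haematopoietic stem cells (HSCs). The genes were chosen by name: the catalytic subunits Rnf2 and Ring1, the Polycomb group RING finger genes Bmi1, Pcgf1, Pcgf3, Pcgf5 and Pcgf6, the chromobox genes Cbx7 and Cbx8, and the Polyhomeotic gene Phc1. All 10 were found among the 49671 gene IDs of the RNA count files by their Ensembl IDs, and all 10 were among the 15185 genes with enough reads to be tested. For chromatin, peaks in or within 50 kb of each gene were taken from 6 lists of ATAC-seq, an assay in which a transposase cuts open DNA.

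The RNA compared Kdm6b-KO HSCs, from Vav-CRE:Kdm6b fl/fl mice, with Control HSCs, from Vav-CRE:Kdm6b+/+ mice, with 3 libraries in each group. Both groups therefore carried the Vav Cre transgene, which is active throughout the blood lineage and not in stem cells alone, and both were C57BL/6 mice aged 8 weeks. Each RNA library came from pooled marrow of 3 male and 3 female mice, so a library is a pool and not an animal. The ATAC libraries were 3 titled 6bKO and 3 titled Control, from the same strain and age. Their genotype label reads wild-type for all 6, which goes against the titles, so their groups rest on the titles alone.

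PRC1 attaches ubiquitin to histone H2A at genes that are to stay silent. Its catalytic pair, RNF2 (RING1B) or RING1, binds a PCGF protein, and the PCGF protein decides which further subunits join. Canonical complexes carry a CBX protein, which binds histone H3 trimethylated by Polycomb repressive complex 2, and a Polyhomeotic protein, whose SAM domain lets complexes join up. Variant complexes carry RYBP or YAF2 in their place. KDM6B removes the methyl mark that CBX proteins bind, and BMI1 is known in mouse HSCs for sustaining self-renewal by keeping the Cdkn2a locus silent.

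The RNA libraries held 8683106 to 19336121 reads assigned to genes in Kdm6b-KO and 6793873 to 13797890 in Control, so 3 reads were worth 0.148 to 0.461 CPM, the count scaled to the TMM-adjusted library size. Kdm6b itself had 142, 202 and 191 CPM in Kdm6b-KO and 92.0, 282 and 221 CPM in Control. Which exons were removed is not stated in the labels, so a whole-gene count does not check the knockout. All 7 HSC markers listed (Kit, Ly6a, Slamf1, Procr, Mecom, Hlf and Fgd5) were expressed, with a summed level of 1926 to 2254 CPM in Kdm6b-KO and 2018 to 3279 CPM in Control. RNA of other blood cells differed between libraries: 9 neutrophil markers, none at 0 in all libraries, summed to 4253, 193 and 190.0 CPM in Kdm6b-KO and to 3630, 1180 and 2082 CPM in Control. 9 erythroid markers summed to 51.3 to 245 CPM in Kdm6b-KO and 226 to 393 CPM in Control, and 5 mast cell and basophil markers to 5.34 to 11.9 CPM in Kdm6b-KO and 14.1 to 80.9 CPM in Control, with none at 0 in all libraries. The erythroid markers did not move together: of 8 tested, 6 fold changes were negative and 2 positive. Car1 averaged 65.5 CPM in Kdm6b-KO and 225 CPM in Control. Hbb-bt had 22.2, 20.1 and 12.6 CPM in Kdm6b-KO and 10.8, 5.21 and 10.2 CPM in Control.

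The windows around the starts of 4 members whose RNA or open chromatin is described in most detail are shown first: the catalytic paralogs Rnf2 and Ring1, and the chromobox paralogs Cbx7 and Cbx8. Each runs 250 bases before to 50 bases after the RefSeq start on GRCm38.p6, 5′ to 3′ on the gene's strand, with capitals marking matches on either strand to 3 short motifs: GGGCGG (bound by SP family factors), CCAAT (NF-Y) and CACGTG (the E-box).
Rnf2, chr1:151500942-151501241, minus strand: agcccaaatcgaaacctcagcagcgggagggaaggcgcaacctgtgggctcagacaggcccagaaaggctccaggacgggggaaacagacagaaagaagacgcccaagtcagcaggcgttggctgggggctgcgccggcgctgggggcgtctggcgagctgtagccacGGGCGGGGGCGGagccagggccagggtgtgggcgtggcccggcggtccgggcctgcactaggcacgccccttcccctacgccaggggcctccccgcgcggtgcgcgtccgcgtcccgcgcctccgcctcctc
Ring1, chr17:34024631-34024930, minus strand: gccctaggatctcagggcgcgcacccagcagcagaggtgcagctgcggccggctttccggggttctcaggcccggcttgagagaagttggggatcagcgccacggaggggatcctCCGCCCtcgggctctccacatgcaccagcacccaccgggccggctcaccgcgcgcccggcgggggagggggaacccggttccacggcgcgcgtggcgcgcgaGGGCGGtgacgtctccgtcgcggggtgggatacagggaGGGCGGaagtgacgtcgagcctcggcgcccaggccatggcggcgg
Cbx7, chr15:79932597-79932896, minus strand: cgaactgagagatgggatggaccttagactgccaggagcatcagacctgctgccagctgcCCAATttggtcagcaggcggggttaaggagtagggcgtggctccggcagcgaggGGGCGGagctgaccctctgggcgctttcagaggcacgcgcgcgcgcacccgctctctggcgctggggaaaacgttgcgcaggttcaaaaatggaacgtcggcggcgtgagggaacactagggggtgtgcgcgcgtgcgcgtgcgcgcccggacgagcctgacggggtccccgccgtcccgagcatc
Cbx8, chr11:119040864-119041163, minus strand: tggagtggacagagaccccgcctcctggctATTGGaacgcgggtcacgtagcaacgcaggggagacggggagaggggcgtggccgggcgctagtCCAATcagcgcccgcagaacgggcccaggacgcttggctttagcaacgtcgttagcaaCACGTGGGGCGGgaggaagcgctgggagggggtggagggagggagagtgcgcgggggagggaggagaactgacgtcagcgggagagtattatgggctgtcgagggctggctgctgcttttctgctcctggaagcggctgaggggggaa

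The Rnf2 window was 72.7% GC and held 2 adjoining GGGCGG matches and no CCAAT. The Ring1 window was 74.0% GC and held 3 GGGCGG matches. Cbx7 held 1 GGGCGG and 1 CCAAT, whereas Cbx8 held 2 CCAAT on opposite strands and a CACGTG that runs straight into a GGGCGG. The CpG count was 0.76 of the number the base composition gives in Rnf2, 0.91 in Ring1, 0.99 in Cbx7 and 0.83 in Cbx8, against a median of 0.384 over 32851 RefSeq promoter windows and of 0.801 over those with a peak in all 6 ATAC lists.

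RefSeq windows matched 9 of the 10 members, with 11 windows in all since Pcgf5 has 3 starts. GGGCGG was in 8 of the 11, against 35.7% of all windows. CCAAT was in 3 (Cbx7, Cbx8 and the first Pcgf5 window), against 37.4%, and CACGTG in 2 (Bmi1 and Cbx8), against 7.15%. Of 4 further motifs searched on both strands, GCGCATG (part of the NRF1 site; 3.91% of all windows) was in the Pcgf3 window alone. CCGGAAG (ETS family; 8.86%), TATAAA (the TATA box; 13.6%) and AAGATGG (part of the YY1 site; 6.34%) were in none of the 11. Windows with a peak in all 6 ATAC lists held GGGCGG in 70.4% of cases, so the members' share is near that of open promoters. In the same open windows CCAAT was in 42%, CACGTG in 10.6% and GCGCATG in 7.49%. There CCGGAAG was in 21.7%, TATAAA in 5.28% and AAGATGG in 7.74%. A match describes letters and not binding.

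In the RNA, none of the 10 subunit genes differed between Kdm6b-KO and Control HSCs past the threshold. By edgeR's quasi-likelihood test with Benjamini-Hochberg adjustment over all genes, 0 of 10 passed an adjusted p of 0.05, where 0.461% of all tested genes passed (70 of 15185; 0.244% higher and 0.217% lower in Kdm6b-KO). The count over all genes was 519, 46 and 161 without Control library 1, 2 or 3 and 97, 24 and 20 without Kdm6b-KO library 1, 2 or 3, with 0 members called each time. DESeq2 and limma-voom also called 0 members, and 1 member, Cbx7, had an unadjusted p under 0.05, against 14.8% of all genes. Log2 fold changes of Kdm6b-KO over Control ranged from -0.37 (Pcgf5) to 0.96 (Cbx8), with 6 positive and 4 negative and a median of 0.108, beside a median of -0.001 over all tested genes. The groups did not overlap for 2 of the 10, a share of 20% that is near the 20.5% of all genes (11.0% higher and 9.49% lower in Kdm6b-KO); both members, Cbx7 and Cbx8, were higher. In bulk RNA, fewer cells of a type and less RNA per cell cannot be told apart. P-values measure the spread between these 3 pools in each group.

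**Figure D1:**
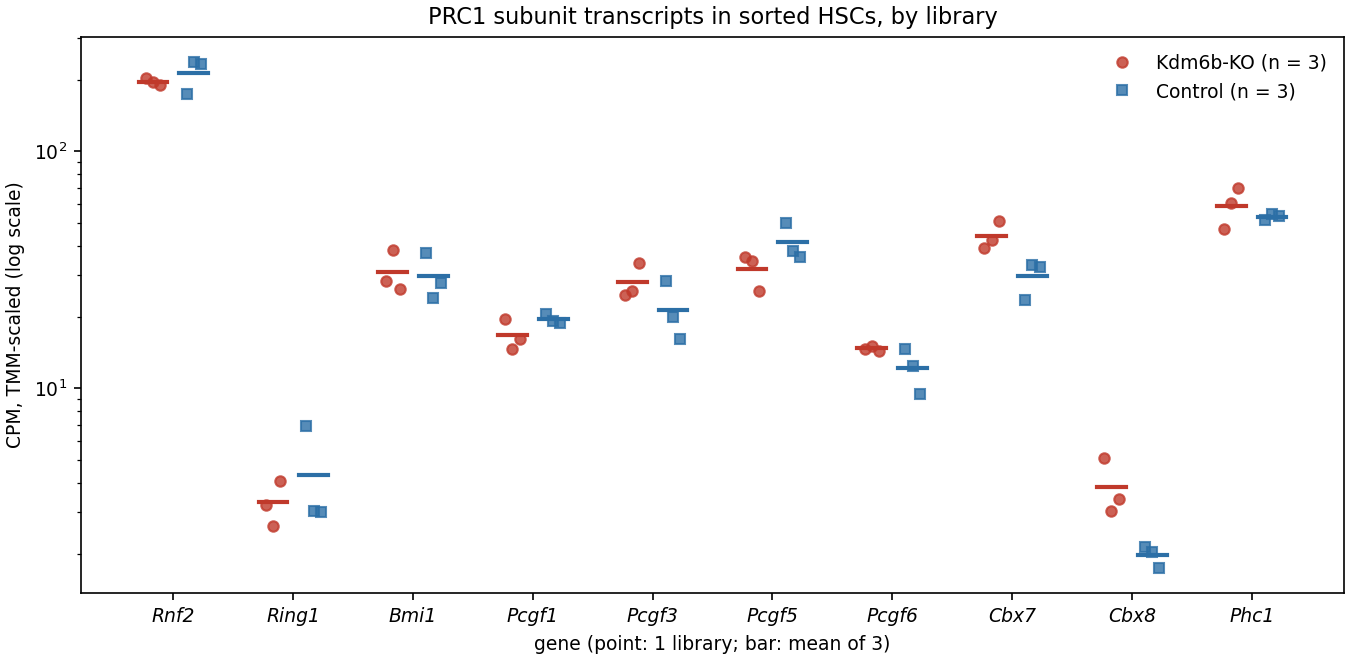
CPM (log scale, TMM-scaled) of the 10 PRC1 genes in each RNA library; circles are 3 Kdm6b-KO and squares 3 Control libraries, and bars are group means. Only for Cbx7 and Cbx8 do all Kdm6b-KO points lie above all Control points.

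Rnf2, which encodes the main H2A ubiquitin ligase RING1B, lies at chr1:151469398-151500991. It had 205, 196 and 189.5 CPM in Kdm6b-KO and 174, 238 and 233 CPM in Control, or 197 ± 7.67 CPM in Kdm6b-KO and 215 ± 35.5 CPM in Control (SD, n = 3 each). The Kdm6b-KO values lay between the lowest and the highest Control value. Its log2 fold change was -0.13 ± 0.19 (SE; adjusted p = 0.801 by edgeR's quasi-likelihood test with Benjamini-Hochberg adjustment).

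Ring1, at chr17:34020792-34024680, encodes the second ligase RING1A and was counted by few reads, 37, 24 and 82 in Kdm6b-KO and 45, 24 and 41 in Control. That came to 3.23, 2.62 and 4.06 CPM in Kdm6b-KO and 6.91, 3.05 and 3.00 CPM in Control, where Control library 1 stood above the other 5. The log2 fold change was -0.35 ± 0.45 (adjusted p = 0.755, edgeR's quasi-likelihood test), and without Control library 1 it was 0.14. Its direction therefore rests on 1 library.

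The 5 PCGF genes set the identity of the complexes. Bmi1, at chr2:18677018-18686629, had 28.2, 38.5 and 26.2 CPM in Kdm6b-KO and 37.2, 24.0 and 27.9 CPM in Control. The groups interleaved, each with 1 high library, and averaged 31.0 ± 6.57 CPM in Kdm6b-KO and 29.7 ± 6.76 CPM in Control (log2 fold change 0.06 ± 0.25; adjusted p = 0.938 by edgeR's quasi-likelihood test). The Bmi1 direction turned when Control library 2 (-0.07) or Kdm6b-KO library 2 (-0.12) was left out. Pcgf1, whose protein joins KDM2B and BCOR in the variant complex that binds unmethylated CpG islands, had 19.6, 14.6 and 16.2 CPM in Kdm6b-KO and 20.6, 19.2 and 18.9 CPM in Control. It lies at chr6:83077552-83080855, and its Kdm6b-KO library 1 fell inside the Control range, so the groups overlapped (log2 fold change -0.22 ± 0.25; adjusted p = 0.722 by edgeR's quasi-likelihood test).

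Pcgf3 and Pcgf5 encode close paralogs that form like variant complexes, known for Xist-dependent silencing of the X chromosome. Pcgf3, at chr5:108461259-108506976, had 24.6, 25.7 and 33.7 CPM in Kdm6b-KO and 28.3, 20.1 and 16.1 CPM in Control. Pcgf5, at chr19:36348329-36460970, had 35.8, 34.3 and 25.8 CPM in Kdm6b-KO and 49.9, 38.0 and 35.8 CPM in Control. The 2 genes leaned opposite ways, with log2 fold changes of 0.39 ± 0.26 for Pcgf3 and -0.37 ± 0.23 for Pcgf5. Neither passed edgeR's quasi-likelihood test (adjusted p = 0.509 for Pcgf3 and 0.472 for Pcgf5), and in each the groups overlapped in 1 library.

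Pcgf6, at chr19:47033617-47050939, encodes the subunit of the variant complex with MGA, MAX, E2F6 and L3MBTL2 that keeps germline genes silent. It had 14.7, 15.1 and 14.4 CPM in Kdm6b-KO and 14.6, 12.5 and 9.50 CPM in Control. The Kdm6b-KO libraries were close together (SD 0.380 CPM), while the Control libraries were spread (SD 2.56 CPM), with the highest Control value inside the Kdm6b-KO range. The log2 fold change was 0.28 ± 0.27 (adjusted p = 0.671, edgeR's quasi-likelihood test).

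The chromobox genes were the members with the largest positive fold changes. Cbx7, at chr15:79915804-79971143, encodes the CBX protein that in mouse HSCs is known for favouring self-renewal. It had 39.1, 42.3 and 50.6 CPM in Kdm6b-KO and 23.7, 33.0 and 32.4 CPM in Control, so every Kdm6b-KO library lay above every Control library. The means, 44.0 ± 5.95 CPM in Kdm6b-KO and 29.7 ± 5.24 CPM in Control, differed 1.48-fold (log2 fold change 0.57 ± 0.22, adjusted p = 0.259 by edgeR's quasi-likelihood test; adjusted p 0.141 to 0.592 over 13 alternatives). Cbx7 overlaps Apobec3 in the annotation, and how reads shared by both were counted is not given in the sources used here.

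Cbx8, at chr11:119036303-119040913, encodes a CBX protein linked in mouse blood cells to differentiation. It was counted by 58, 28 and 69 reads in Kdm6b-KO and 14, 16 and 24 in Control, which gave 5.07, 3.05 and 3.41 CPM in Kdm6b-KO and 2.15, 2.03 and 1.75 CPM in Control. The groups did not overlap, and the means, 3.84 ± 1.08 CPM in Kdm6b-KO and 1.98 ± 0.204 CPM in Control, differed 1.94-fold. The log2 fold change of 0.96 ± 0.45 did not pass edgeR's quasi-likelihood test (adjusted p = 0.339; 0.236 to 0.66 over 12 alternatives). On chromosome 11, 17.3% of 1110 tested genes were higher in Kdm6b-KO without overlap, beside 11.0% of all genes, and 2.43% were called, beside 0.461%. Kdm6b lies on this chromosome too, as do Pcgf2, Cbx2, Hoxb4 and Meis1, named below. The part of chromosome 11 in the values of Cbx8 and of these genes was not tested.

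Phc1, at chr6:122317731-122340227, encodes a Polyhomeotic subunit. It had 47.0, 60.3 and 69.8 CPM in Kdm6b-KO and 51.1, 54.5 and 53.5 CPM in Control. The 3 Control libraries lay within the spread of the Kdm6b-KO libraries, of which library 1 was below and the other 2 above all Control libraries. The log2 fold change was 0.15 ± 0.20 (adjusted p = 0.759, edgeR's quasi-likelihood test). The neutrophil marker sum was highest in Kdm6b-KO library 1 and Control library 1. Of all libraries, Cbx8 was highest in the first of these, and Ring1, Pcgf1 and Pcgf5 in the second. Other members went the other way: Phc1 was lowest of all in Kdm6b-KO library 1, and Rnf2 and Cbx7 in Control library 1. The part of other cells' RNA in the members' values was not tested.

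**Figure D2:**
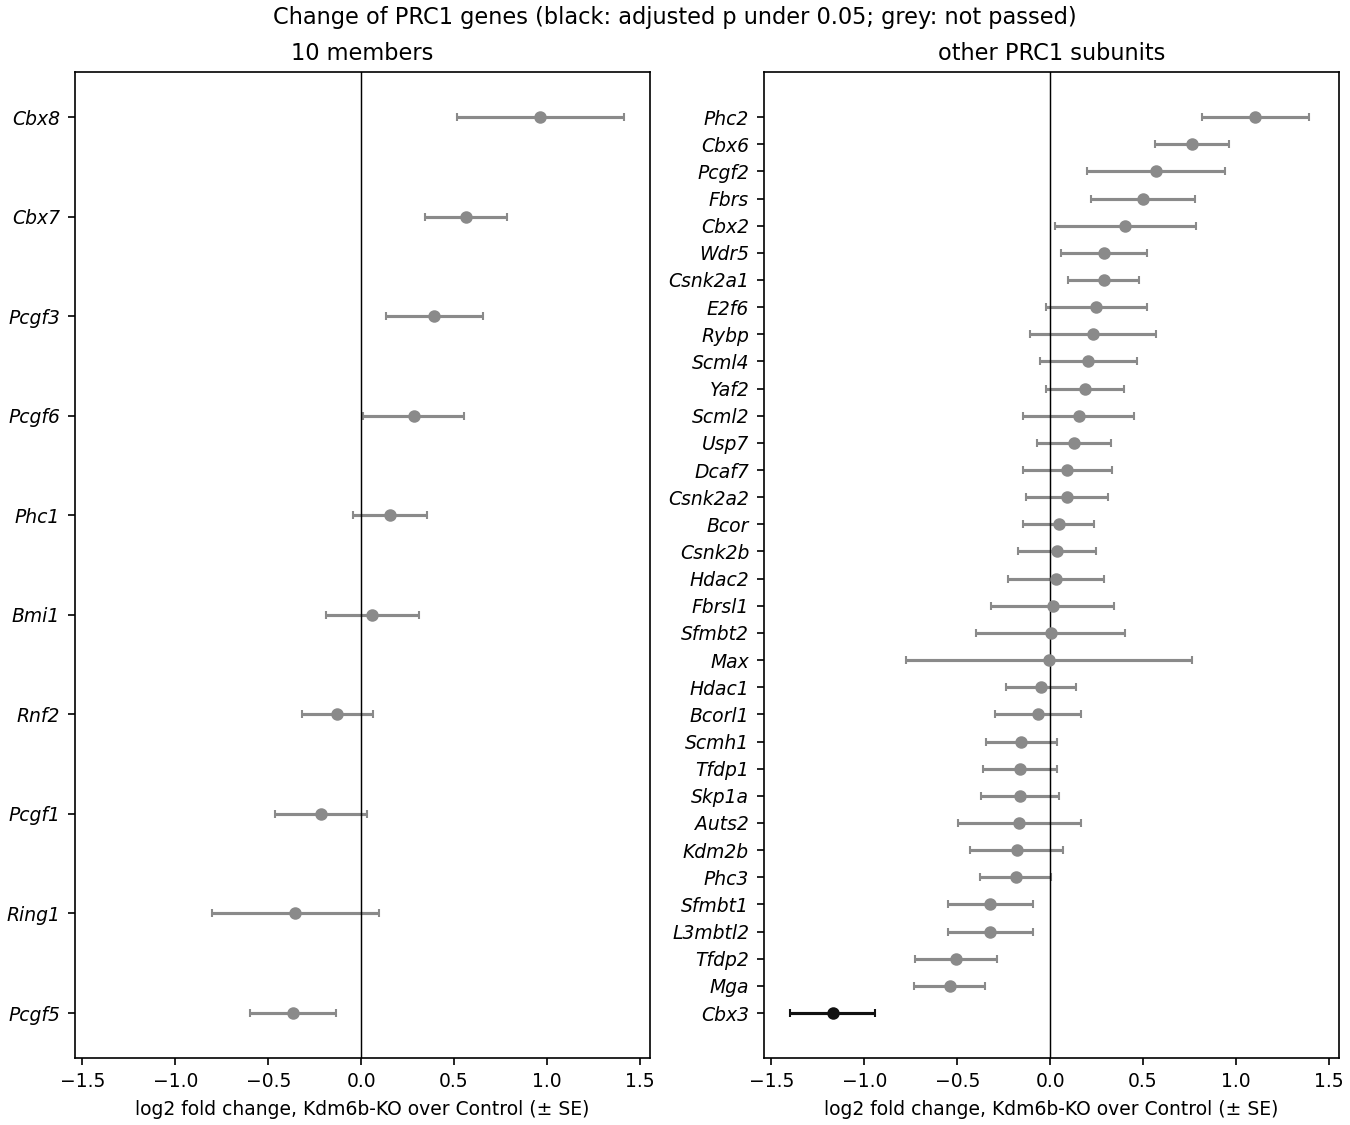
Log2 fold change of Kdm6b-KO over Control (± SE) for the 10 members (left) and 34 other PRC1 subunit genes (right); black marks an adjusted p under 0.05 by edgeR's quasi-likelihood test. Cbx3 is the 1 black point, at -1.17; the members span -0.37 to 0.96 and are all grey.

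Genes that fill the same place in a complex were also compared as a ratio within each library, which does not depend on library scaling. Of 6 pairs, the Kdm6b-KO and Control ratios did not overlap in 2, Pcgf3/Pcgf5 and Phc1/Phc2. The share of other gene pairs without overlap was not computed, so the count is a description and not a result about these pairs. The log2 ratio of Pcgf3 to Pcgf5 reads was -0.54, -0.42 and 0.39 in Kdm6b-KO and -0.82, -0.92 and -1.15 in Control, a shift of 0.77 towards Pcgf3. The log2 ratio of Phc1 to Phc2 was 1.05, 0.90 and 1.10 in Kdm6b-KO and 1.47, 2.61 and 1.97 in Control, a shift of -1.0, towards Phc2. Both had an exact permutation p of 0.1, two-sided, the smallest that 3 libraries against 3 can give, and 0.3 after adjustment over the 6 pairs, so neither can pass the threshold in this design.

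In the other 4 pairs the groups overlapped: the difference of Kdm6b-KO minus Control was 0.18 for Rnf2/Ring1, -0.49 for Bmi1/Pcgf2, -0.33 for Cbx7/Cbx8 and 0.05 for Rybp/Yaf2, with exact permutation p of 1, 0.3, 0.5 and 0.9. Cbx7 and Cbx8 thus leaned the same way and their ratio did not separate the groups. Without Control library 1, 4 of the 6 pairs were apart, with Rnf2/Ring1 (-0.36) and Cbx7/Cbx8 (-0.55) added. That count too has no share over other gene pairs beside it.

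**Figure D3:**
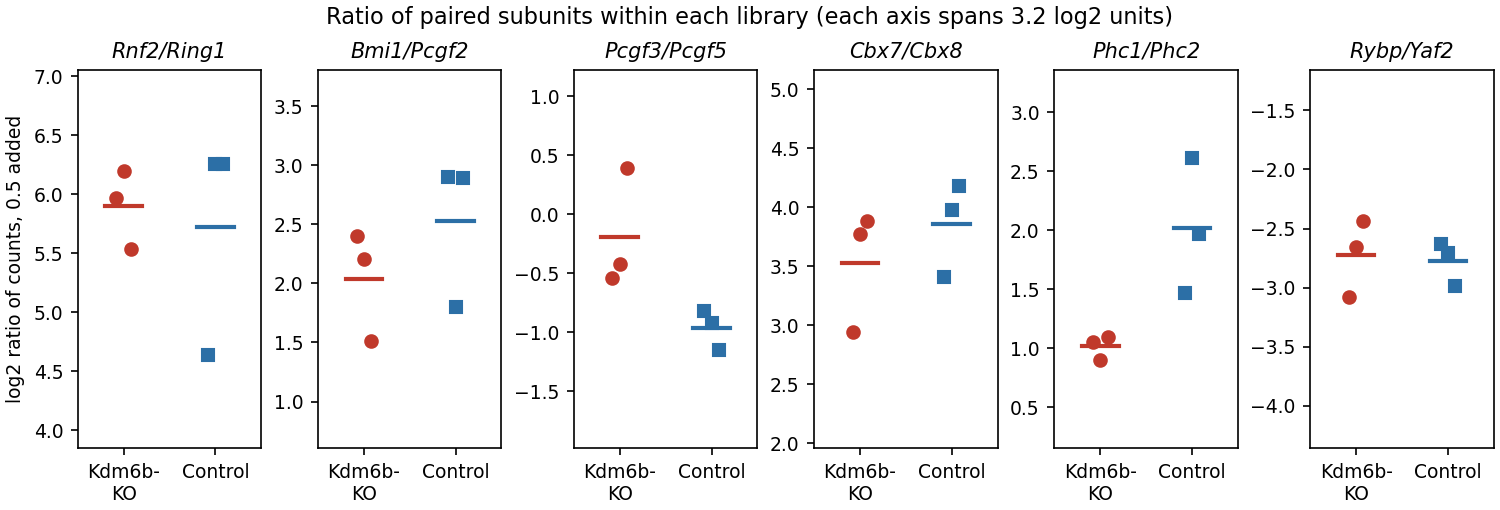
Log2 ratio of counts, 0.5 added to each, for 6 subunit pairs in each library (circles 3 Kdm6b-KO, squares 3 Control, bars group means). All Kdm6b-KO points lie above the Control points for Pcgf3/Pcgf5 and below them for Phc1/Phc2.

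Among 34 other PRC1 subunit genes, all tested, 20 fold changes were positive and 14 negative, with a median of 0.033. Of the 34, 0 were called higher and 1 was called lower, beside 0.244% and 0.217% of all tested genes. The groups did not overlap for 6 of them (17.6%, beside 20.5% of all tested genes), 3 in each direction. The 1 called gene was Cbx3, on chromosome 6, which encodes the HP1 gamma protein found in the PCGF6 complex. It had 52.1, 55.7 and 41.0 CPM in Kdm6b-KO and 98.4, 150.1 and 86.1 CPM in Control, with no overlap. Cbx3 fell by 1.17 ± 0.23 on the log2 scale (adjusted p = 0.0353 by edgeR's quasi-likelihood test). It lost the threshold without Control library 2 (0.169) and without Kdm6b-KO library 1 (0.0776), 2 (0.146) or 3 (0.288), and ran from 0.000168 to 0.288 over all alternatives. Without Control library 1 the list had 3 called genes, Phc2 and Cbx6 beside Cbx3, where 519 of all 16106 genes tested were called. The gene names used hold 8 symbols of Cbx3 pseudogenes. Neither their likeness to Cbx3 nor a split of reads between them was tested, so the value is uncertain.

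Phc2, the paralog of Phc1, had 22.7, 32.4 and 32.6 CPM in Kdm6b-KO and 18.4, 8.89 and 13.6 CPM in Control, with no overlap. Its log2 fold change was 1.10 ± 0.29 (adjusted p = 0.114 by edgeR's quasi-likelihood test, 0.0189 by DESeq2 and 0.101 by limma-voom). Phc2 was called under 3 of 13 alternatives (adjusted p 0.0079 to 0.409). DESeq2 called 466 of all 15185 genes, where edgeR's test called 70. Cbx6, a further Polycomb chromobox gene, had 69.8, 66.6 and 67.8 CPM in Kdm6b-KO and 46.2, 31.0 and 43.2 CPM in Control, also with no overlap. The Cbx6 log2 fold change was 0.76 ± 0.20 (adjusted p = 0.118 by edgeR's quasi-likelihood test, 0.0364 by DESeq2 and 0.117 by limma-voom). Cbx6 too was called under 3 of 13 alternatives (adjusted p 0.0316 to 0.444). Cbx2, which encodes another CBX protein of canonical complexes, averaged 6.00 ± 1.52 CPM in Kdm6b-KO and 4.51 ± 1.03 CPM in Control (log2 fold change 0.40 ± 0.38; adjusted p = 0.661 by edgeR's quasi-likelihood test). Cbx2 was named after its values were seen.

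Other partners did not pass either. Pcgf2, the paralog of Bmi1, averaged 7.60 ± 2.02 CPM in Kdm6b-KO and 5.17 ± 1.58 CPM in Control (0.57 ± 0.37; adjusted p = 0.498 by edgeR's quasi-likelihood test). Mga, which anchors the PCGF6 complex to DNA, averaged 180.3 ± 24.2 CPM in Kdm6b-KO and 262 ± 27.1 CPM in Control (-0.54 ± 0.19; adjusted p = 0.216 by the same edgeR test). Rybp and Yaf2, the alternatives to a CBX protein, had log2 fold changes of 0.23 and 0.19. The E2F partner Tfdp2 was at -0.51, the ubiquitin ligase adaptor Skp1a at -0.16 and the casein kinase subunit Csnk2b at 0.03.

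Enzymes that remove H2A ubiquitin, and their partners, were 15 genes, of which 14 were tested and 0 called by edgeR's quasi-likelihood test. Of these, 8 fold changes were positive and 6 negative (median 0.148), 5 had an unadjusted p under 0.05 and 2 showed no overlap (14.3%), beside 14.8% and 20.5% of all tested genes. Mysm1, an H2A deubiquitinase needed for normal blood stem cells in mice, had 346, 421 and 310.1 CPM in Kdm6b-KO and 492, 1075 and 592 CPM in Control. The groups did not overlap, but the Control libraries were widely spread. The Mysm1 log2 fold change was -1.0 ± 0.28 (adjusted p = 0.128 by edgeR's quasi-likelihood test, 0.0146 by DESeq2 and 0.139 by limma-voom). Mysm1 was called under 3 of 13 alternatives (adjusted p 0.0028 to 0.45). The deubiquitinase Usp21 averaged 42.5 ± 3.77 CPM in Kdm6b-KO and 27.4 ± 2.71 CPM in Control (log2 fold change 0.63; adjusted p = 0.187 by edgeR's quasi-likelihood test). Log2 fold changes were -0.71 for the deubiquitinase Usp3, 0.64 for the BAP1 partner Foxk1, -0.33 for Hcfc1 and -0.23 for Ogt.

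Of 9 genes known as PRC1 targets in blood cells, 6 were tested and 0 called by edgeR's quasi-likelihood test. Their median log2 fold change was 0.149, and 0 had an unadjusted p under 0.05. The groups did not overlap for 2 of the 6 (33.3%, beside 20.5% of all tested genes), with Hoxa7 higher and Hoxb4 lower in Kdm6b-KO. Cdkn2a, the cell cycle inhibitor locus that BMI1 keeps silent, had 0 reads in all 6 libraries, which allows up to 0.148 to 0.461 CPM at these depths. Cdkn2b was counted in Control library 2 alone, at 0.381 CPM, the worth of 3 reads there. Meis1, a stem cell transcription factor, averaged 1052 ± 52.1 CPM in Kdm6b-KO and 1264 ± 257 CPM in Control (-0.27). Hoxa7 averaged 60.0 ± 4.12 CPM in Kdm6b-KO and 48.4 ± 5.06 CPM in Control (0.31), while log2 fold changes were 0.28 for Hoxa9, 0.09 for Hoxa10 and -0.44 for Hoxb4.

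Over the 6 RNA libraries, the tested genes of at least 5 CPM whose log2 CPM was most like that of Rnf2 were AI597479 (Pearson r = 0.991), D330041H03Rik (0.984) and Gm26857 (0.984). Those most like Bmi1 were Efr3a (0.996), Ppm1l (0.993) and Twistnb (0.983). These are the highest of 11505 genes over 6 points that share their libraries, and are given as a description. Bmi1 and Efr3a were both highest in Kdm6b-KO library 2 and Control library 1.

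The ATAC lists held 63682, 53692 and 69729 peaks in 6bKO and 47450, 44739 and 62125 in Control; read depth is unknown here, and list length moves with it. Peaks of the 6 lists were joined where they overlapped by at least 1 bp, which gave 163 regions in or within 50 kb of the 10 genes. All 6 lists held 39 of these (23.9%), beside 17.2% of the 99313 regions within 50 kb of any tested gene, and 65 were in a single list (39.9%, beside 51.7%). Regions held by all 3 6bKO and no Control list numbered 1 of 163 (0.613%, beside 1.33%), and the reverse pattern 0 (beside 0.344%). Without Control list 3 the first number was 8, of 146 regions. It was 2 without Control list 2, and 3, 4 and 2 without 6bKO list 1, 2 or 3. The reverse was 1 without Control list 2 and 3 without 6bKO list 3. With a list left out, no share over regions near any tested gene was computed. These counts are therefore a description and not a result about the members. The windows also hold other genes, with 2 genes in the Pcgf5 window and 15 in that of Pcgf1, so not every region belongs to a PRC1 gene.

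**Figure D4:**
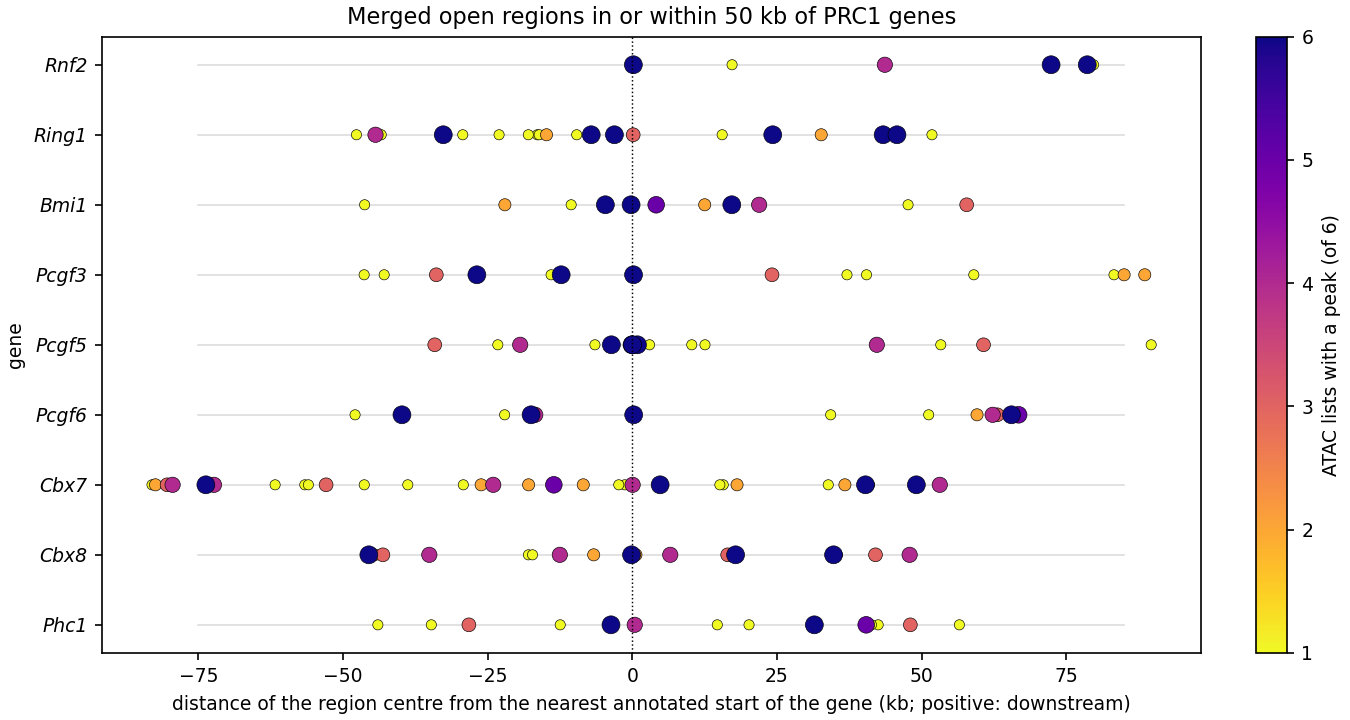
Merged ATAC regions around 9 PRC1 genes (Pcgf1, without a strand in the table used, is left out), by distance in kb from the nearest annotated start; colour and size give the number of the 6 lists with a peak. Regions in all 6 lists lie at the starts of Rnf2, Bmi1, Pcgf3, Pcgf5, Pcgf6 and Cbx8.

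Set against the length of each list, the number of peaks near a member did not separate 6bKO from Control for any of the 10 genes, while 15.7% of 13437 genes genome-wide were apart (4.08% with more in 6bKO, 11.6% with fewer). Under other settings some members were apart: Ring1 among peaks with a −log10 q of at least 5, with 15.4, 15.3 and 18.4 peaks per 100000 in 6bKO and 20.1, 22.2 and 22.5 in Control (difference -5.29, against -1.5 over all peaks), and Pcgf5 with lists of equal length, with 17.9, 17.9 and 15.6 in 6bKO and 11.2, 13.4 and 13.4 in Control (difference 4.47, against 1.42). Both had an exact permutation p of 0.1, the smallest possible. Without 6bKO list 2, 4 members were apart (Pcgf1, Pcgf6, Rnf2 and Phc1), without Control list 1, 2 were (Bmi1 and Ring1), and without 6bKO list 3 or Control list 3, 1 was (Pcgf5 or Cbx8). The share of genes apart genome-wide was computed over all peaks and lists only. Under the other settings no such share stands beside the members, which are named as a description. Over all peaks and lists the smallest exact permutation p was 0.3, for Cbx8. Cbx8 had 10, 10 and 14 peaks in 6bKO and 7, 6 and 12 in Control, a difference of 2.31 peaks per 100000. Cbx7 had the most regions, 31, with 9, 11 and 22 peaks in 6bKO and 9, 10 and 19 in Control, and Rnf2 the fewest, 6, with 4, 4 and 4 peaks in 6bKO and 5, 3 and 4 in Control. The third library of each group held the most Cbx7 peaks, and these were also the longest list of each group.

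At the starts themselves the catalytic paralogs differed. The Rnf2 start lay in a region held by all 6 lists (chr1:151500303-151501325), with the authors' fold enrichment at 12.9, 11.9 and 15.9 in 6bKO and 8.2, 18.0 and 17.9 in Control. The Ring1 start (chr17:34024305-34024759) was held by 6bKO lists 2 and 3, at 4.1 and 3.9, and by Control list 3, at 3.9. Fold enrichments are the authors' values for each peak and rank peaks within a list only. Over all RefSeq promoter windows, 25.7% had a peak in all 6 lists and 54.9% in none, and 6 of the 11 member windows had one in all 6.

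Starts of Bmi1, Pcgf3, Pcgf5, Pcgf6 and Cbx8 also had a region in all 6 lists. The Bmi1 region (chr2:18676349-18677259) had a fold of 7.5, 5.6 and 6.2 in 6bKO and 3.5, 4.1 and 5.5 in Control, and the Pcgf3 region (chr5:108460919-108462017) 7.3, 7.6 and 11.8 in 6bKO and 8.5, 14.2 and 14.0 in Control. Of the 3 annotated Pcgf5 starts, the first and the third were in regions of all 6 lists, and the middle one had no peak in any list. The Pcgf6 region reached into the promoter window in 3 6bKO and 2 Control lists. Phc1 had a start region in 6bKO lists 2 and 3 (3.4 and 4.3) and Control lists 2 and 3 (7.0 and 5.6). Pcgf1 has no start or strand in the table used, so regions within 1 kb of either end of its span were taken. One (chr6:83077558-83077918) was in 6bKO list 3 (5.5) and Control lists 2 and 3 (4.5 and 4.3). A second region within 1 kb of Pcgf1 (chr6:83076596-83076835) was in 6bKO list 2 alone (4.3).

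**Figure D5:**
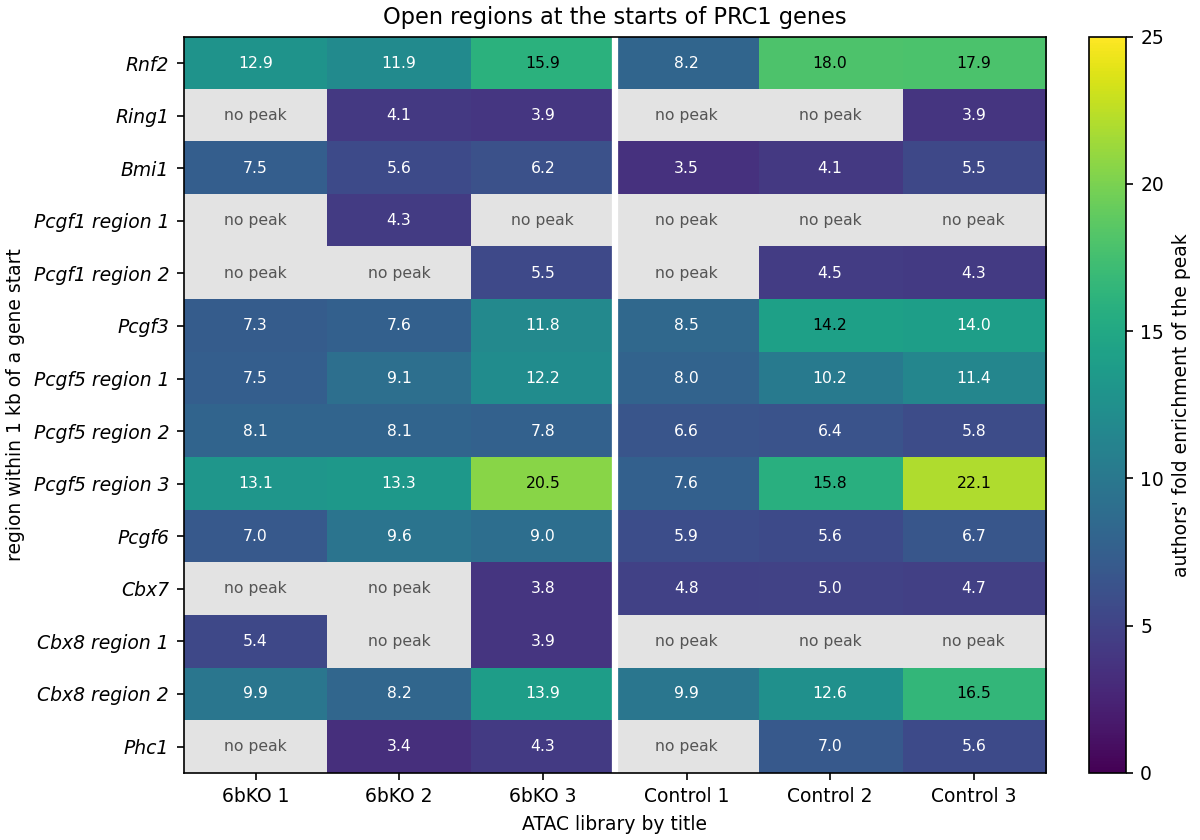
The authors' fold enrichment of the peak in each region within 1 kb of a member's start (for Pcgf1, of either end of its span), for 3 6bKO lists (left) and 3 Control lists (right). Grey marks a list with no peak. Rnf2, Bmi1, Pcgf3, Pcgf6, every Pcgf5 region and the second Cbx8 region have a peak in every list. The Cbx7 region, which lies inside the gene's span, has one in 1 6bKO and all 3 Control lists.

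Among the member windows, that of Cbx7 was the 1 held by all 3 Control lists and 1 6bKO list. This pattern was shown by 0.368% of all windows, and Cbx7 was singled out after its values were seen. The RefSeq start used lies inside the annotated span of Cbx7 (chr15:79915804-79971143, minus strand). No window covered the upstream end of that span. The region nearest that end, chr15:79971328-79971578, was in 6bKO list 1 alone. The region at the window, chr15:79932310-79932881, had a fold of 3.8 in 6bKO list 3 and no peak in the other 6bKO lists, and 4.8, 5.0 and 4.7 in the Control lists. In the RNA, the same gene had higher CPM in all Kdm6b-KO libraries. The next Cbx7 region, 4.81 kb downstream of the start (chr15:79927572-79928110), was in all 6 lists, with a fold of 10.5, 6.78 and 11.1 in 6bKO and 5.47, 4.53 and 7.68 in Control. Where a peak is absent, the signal may lie just under the caller's threshold, which a list cannot show.

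Cbx8 lies beside Cbx2 on chromosome 11. Its start region, chr11:119040616-119041483, was in all 6 lists, with a fold of 9.86, 8.24 and 13.9 in 6bKO and 9.86, 12.6 and 16.5 in Control. Inside the gene, a second region of 186 bp (chr11:119040196-119040381) was in 6bKO lists 1 and 3 and no Control list. The 1 region near any member held by all 3 6bKO lists and no Control list was chr11:119024227-119024636, 410 bp long and 16.5 kb downstream of the Cbx8 start, with a fold of 7.01, 6.83 and 4.42 in 6bKO. It lies inside the span of Cbx2 (chr11:119023019-119031275) and near the annotated start of Gm35829, so Cbx8 is not the nearest gene. With lists cut to the same length, 0 regions near the members kept that pattern.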

How the data were processed

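RNA and ATAC libraries of sorted HSCs (Lin-, cKit+, Sca1+, CD150+, CD48-) were analysed; 8 further samples of the series were not analysed here. The authors deposited 1 file of raw read counts per RNA library. The tools named for them, per the submitters' processing notes and without roles, are featureCounts 1.4.5 (Subread), STAR 2.0.4, Partek 6.6 and HTSeq 0.8.0; reads not assigned to a gene were left out, and strand handling is not given in the sources used here. Assigned reads made up 16.46% to 19.73% of each file. The authors also deposited 1 MACS2 peak list per ATAC library, per the submitters' processing notes with cutadapt 1.16 and BWA 0.7.16a on mm10. In these lists the authors give fold enrichment as a ratio and q as −log10.

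The test across genes was edgeR's (4.0.16; R 4.3.3; filterByExpr, TMM, robust glmQLFit and glmQLFTest on genotype), two-sided, with Benjamini-Hochberg adjustment over 15185 genes and a threshold of 0.05; limma 3.58.1 (voom) and DESeq2 1.42.0 were alternatives. CPM use TMM-scaled library sizes. Ratios of subunits and peak numbers were compared by exact permutation tests over 20 regroupings, 0.1 being the smallest p. The scripts were tested on simulated data. Gene positions and promoter sequences are from RefSeq GRCm38.p6. Named genes are the members, their pair partners and, of each other list, called genes, the 4 of highest CPM and the 2 largest fold changes in each direction at 5 CPM or more. Members, lists and tests were chosen with earlier results of these data known. No 2 RNA libraries agreed within sampling noise (smallest chi-square per degree of freedom 14.75). Intervals were not computed; limits from a count of 0 use 3 reads and cover counting error only. One gene of the list of other subunits is not reported here.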

Additional observations from a re-analysis of the deposited data

How the results depend on the processing

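No member was called under any of 13 alternatives for the RNA, and 61 alternative values of the summary counts stayed within 1.5 times of the reported one while 42 did not. Over all genes the number called was 466 (190 higher, 276 lower) with DESeq2 and 576 (249 and 327) with no low-count filter, with 3 other PRC1 subunits each. With library totals alone, 70 of 100 calls were higher, against 37 of 70, and the median log2 fold change of all genes moved to 0.147; Rnf2 turned to 0.02 and Kdm6b to 0.01, both below that median. With 1 library left out, calls ran from 20 to 519 (higher 13 to 187, lower 7 to 332, other PRC1 subunits 0 to 3), and separated pairs from 2 to 4. The replicate block gave 88 calls (53 lower) and 0 members; libraries of the same number did not pair, with correlations of 0.0484, 0.169 and -0.11, and only library 2 of each group correlated best with its own number. Over the same left-out libraries, log2 fold changes ran from -0.12 to 0.25 for Bmi1 (-0.07 without Control library 2), -0.57 to 0.14 for Ring1, -0.14 to 0.20 for Csnk2b (-0.03 without Kdm6b-KO library 3), -0.01 to 0.22 for Hoxa10 and -0.49 to 0.19 for Kdm6b, and ratio differences from -0.36 to 0.45 for Rnf2/Ring1 and -0.09 to 0.23 for Rybp/Yaf2 (-0.06 without Control library 3).

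Peaks per 100000 near a member, 6bKO minus Control, changed sign for 7 genes, none of them separated in the main count. Members separated numbered 0 over all peaks and lists, 1 at a −log10 q of at least 5 (Ring1, -5.29), 1 with lists of equal length (Pcgf5, 4.47), 0 with windows of 10 kb and 0 to 4 with 1 list left out (among them Pcgf6 at -5.05 without 6bKO list 2 and Ring1 at -3.16 without Control list 1). A share over all genes, or over regions near any tested gene, was computed only for all peaks and lists. With windows of 10 kb the difference was 1.43 for Pcgf1, 0.568 for Pcgf3 and 0.162 for Pcgf6, and 16 regions were in all lists with 0 in 6bKO alone. With lists of equal length it was 0.745 for Rnf2 and 2.98 for Cbx7, with 0 regions in 6bKO alone and 1 in Control alone. At a −log10 q of at least 5 it was 2.01 for Cbx7 and -0.822 for Phc1. With 1 list left out it ran from -3.58 to 0.68 for Pcgf1, -4.95 to 1.36 for Pcgf3, -0.0565 to 2.69 for Pcgf5, -6.66 to 2.05 for Cbx7 (1.4 without Control list 3) and -0.0847 to 2.47 for Phc1, and regions in 6bKO alone ran from 1 to 8 and in Control alone from 0 to 3. The cause of these shifts was not tested. Ring1 and Cbx8 rest on 14 to 82 reads a library, and were not tested at a mean of 5 CPM.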
